A study of Mus musculus with 16 samples.

Results

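High endothelial and lymphoid tissue genes were followed in the seminal vesicles (SVs) of 5-week-old mice. The set held 9 genes of the 31274 in the deposited table: *Glycam1*, *Madcam1*, *Chst4*, *Selp*, *Vcam1*, *Icam1*, *Lta*, *Ltb* and *Ltbr*. They were chosen by name for lymphocyte homing and lymphoid tissue formation, and the choice was made on the measured FPKM of *Glycam1* over the 4 groups, since this gene is listed with DES in WT mice and is nearly absent elsewhere. The values of *Glycam1* are therefore given as a description, with no test. The other members were listed with results of these data known, so their differences that involve WT-DES are set beside the share of all genes that passed the same test, and nothing further is read from their number.

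RNA-seq was done on whole SVs of male C57Bl/6 mice in 4 groups of 4 samples each. WT-veh and αERKO-veh were the vehicle groups of the 2 genotypes, and WT-DES and αERKO-DES the treated ones. Diethylstilbestrol (DES), a synthetic oestrogen, was injected under the skin of treated pups from day 1 to day 5 after birth, with a daily dose of 2 µg for each pup, and vehicle pups received corn oil alone. αERKO mice lack functional oestrogen receptor α (ERα) in every tissue through disruption of *Esr1*, so the loss is not limited to the SV. The methods give 4 samples per group for RNA-seq, but describe the WT-DES RNA elsewhere as 3 pools of mice and the other groups as 4 individual mice, so what 1 WT-DES sample holds is not settled and p-values measure the spread between the samples as deposited.

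High endothelial venules are the vessels through which lymphocytes leave the blood and enter lymph nodes. Their cells display sulphated and fucosylated sugars on carrier proteins such as GlyCAM-1 and MAdCAM-1, and lymphocytes bind these sugars and roll along the vessel wall. P-selectin, VCAM-1 and ICAM-1 on activated endothelium then slow and arrest leukocytes through their glycan and integrin partners. Lymphotoxin α and lymphotoxin β form a trimer on lymphocytes and lymphoid tissue inducer cells that binds the lymphotoxin β receptor on stromal and endothelial cells, and this signal runs through both branches of NF-κB and maintains high endothelial venules and lymphoid organs.

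The promoter windows were examined because NF-κB is the pathway common to most of these genes. RefSeq windows on GRCm38.p6, from 250 bases before to 50 bases after the annotated start, were found for 8 of the 9 genes and not for *Vcam1*. The NF-κB consensus was searched on the given strand in 2 forms, GGG followed by a purine, any 2 bases, 2 pyrimidines and CC, or its reverse complement, so that both strands were read. It matched in 2 of the 8 windows, *Madcam1* and *Ltb*, whereas 8.46% of all 32851 windows held a match. The windows of *Madcam1* (chr10:79664309-79664608, plus strand) and *Ltb* (chr17:35194257-35194556, plus strand) are shown because they hold the matches, and that of *Glycam1* (chr15:103565032-103565331, minus strand) because its FPKM separates the groups most sharply and no match was found. Capitals mark the matches.
Madcam1: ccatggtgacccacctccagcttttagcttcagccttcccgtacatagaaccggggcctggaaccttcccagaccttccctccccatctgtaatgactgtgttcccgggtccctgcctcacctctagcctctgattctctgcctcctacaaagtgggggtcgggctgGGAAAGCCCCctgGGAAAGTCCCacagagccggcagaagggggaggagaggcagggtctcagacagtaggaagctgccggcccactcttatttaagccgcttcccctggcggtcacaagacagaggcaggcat
Ltb: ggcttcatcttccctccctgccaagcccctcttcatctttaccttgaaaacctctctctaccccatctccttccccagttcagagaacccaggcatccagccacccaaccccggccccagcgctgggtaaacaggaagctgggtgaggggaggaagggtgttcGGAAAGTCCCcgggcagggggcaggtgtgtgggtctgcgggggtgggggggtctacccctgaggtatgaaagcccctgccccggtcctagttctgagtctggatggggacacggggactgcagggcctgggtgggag
Glycam1: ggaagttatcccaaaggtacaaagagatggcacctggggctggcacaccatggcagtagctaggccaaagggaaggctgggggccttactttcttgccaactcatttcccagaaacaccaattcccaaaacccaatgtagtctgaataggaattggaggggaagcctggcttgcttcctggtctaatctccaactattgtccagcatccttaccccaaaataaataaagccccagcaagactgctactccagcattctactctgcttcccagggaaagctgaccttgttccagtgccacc

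The *Madcam1* window held 2 matches, which begin 83 and 70 bases before the start, and the *Ltb* window held 1, which begins 87 bases before it. The second match of *Madcam1* and the match of *Ltb* have the same letters, GGAAAGTCCC. The palindromic oestrogen response element, GGTCANNNTGACC, was in none of the 8 windows and in 0.07% of all windows. The letters TATAAA on the given strand were in 2 of the 8 windows, *Icam1* and *Lta*, and in 8.32% of all windows. A match is a description of the letters. An absent match says nothing of a site with other letters inside the window, or of a factor outside these 300 bases. The *Icam1* window, for example, holds TGGAAATTCC, which lacks the leading GGG of the first form and was not counted.

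*Esr1* checks the labels. Its FPKM, which is fragments scaled by transcript length and library size, lay between 2.81 and 4.55 in WT-veh and between 8.74 and 19.6 in WT-DES. The αERKO-veh samples had 1.30 to 1.75 and the αERKO-DES samples 0.91 to 1.64, so the highest αERKO value was under the lowest WT value. The table holds no counts, so the depth behind a value is unknown. The summed FPKM was 375207 to 437619 in WT-DES and 479045 to 652708 in the other groups. Samples also differed within groups. WT-DES samples 2 and 3 had the highest T and B cell markers, WT-DES sample 1 the highest *S100a8* and *S100a9*, which mark neutrophils, and WT-veh sample 4 and αERKO-veh samples 2, 3 and 4 carried skeletal muscle transcripts, with a summed FPKM of 6 markers between 1173 and 1800 against 478 to 677 in the other 8 samples outside WT-DES. In whole tissue, fewer cells of a type and less RNA per cell cannot be told apart.

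*Glycam1* and *Chst4* were at or near 0 outside WT-DES, and *Madcam1* was low throughout. *Glycam1* (ENSMUSG00000022491.5, chromosome 15, 103562759 to 103565081, minus strand, GENCODE M21 on GRCm38) encodes a secreted mucin-like carrier that is also made by the lactating mammary gland. Its FPKM in the WT-DES samples was 10.4, 11.8, 15.1 and 3.27. All 8 vehicle samples were listed at 0, and the αERKO-DES samples were at 0, 0.10, 0.11 and 0, so 2 samples without ERα had a value just above 0. The lowest WT-DES sample was thus far above every sample of the other groups, and sample 4 was well below the remaining WT-DES samples. The milk protein genes *Csn1s1*, *Csn2*, *Csn3*, *Wap* and *Lalba*, which mark secretory mammary epithelium, summed to 0.11 to 0.38 in WT-DES and to at most 0.37 in every other sample, and *Wap* was at 0 throughout.

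*Madcam1*, on chromosome 10, encodes a carrier that is also a ligand for the gut-homing integrin α4β7. Its FPKM was 0.67, 0.73, 1.77 and 0.36 in WT-DES and 0.08, 0.04, 0.15 and 0.39 in WT-veh. The αERKO-veh samples lay at 0.04 to 0.11 and those of αERKO-DES at 0.06 to 0.29. WT-veh sample 4 and WT-DES sample 4 overlapped, while every WT-DES sample was above every αERKO sample. *Chst4*, on chromosome 8, encodes a sulphotransferase of high endothelial cells that completes these homing ligands. It was at 0.76, 1.22, 0.52 and 1.01 in WT-DES, at 0, 0, 0 and 0.05 in WT-veh, at most 0.05 in any αERKO-veh sample and at 0 in all 4 αERKO-DES samples, with no overlap between WT-DES and any other group.

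Neither gene had a group mean above 1 FPKM, so both were left out of the fit over all genes and compared by the exact two-sided permutation test over 70 arrangements, for which the smallest p is 0.0286. The difference in mean log2(FPKM + 1) between WT-DES and WT-veh was 0.88 for *Chst4* (exact permutation p = 0.0286, adjusted over 8 tests 0.0762) and 0.65 for *Madcam1* (exact permutation p = 0.0571, adjusted 0.114). Between αERKO-DES and WT-DES it was −0.89 for *Chst4* and −0.66 for *Madcam1*, each with the same smallest p and an adjusted value of 0.0762. With 8 tests of 4 against 4 samples, 3 of them at the smallest p, the adjusted values could not have passed 0.05. Between the αERKO groups and between the vehicle groups the exact p was 0.143 or more for either gene.

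**Figure D1:**
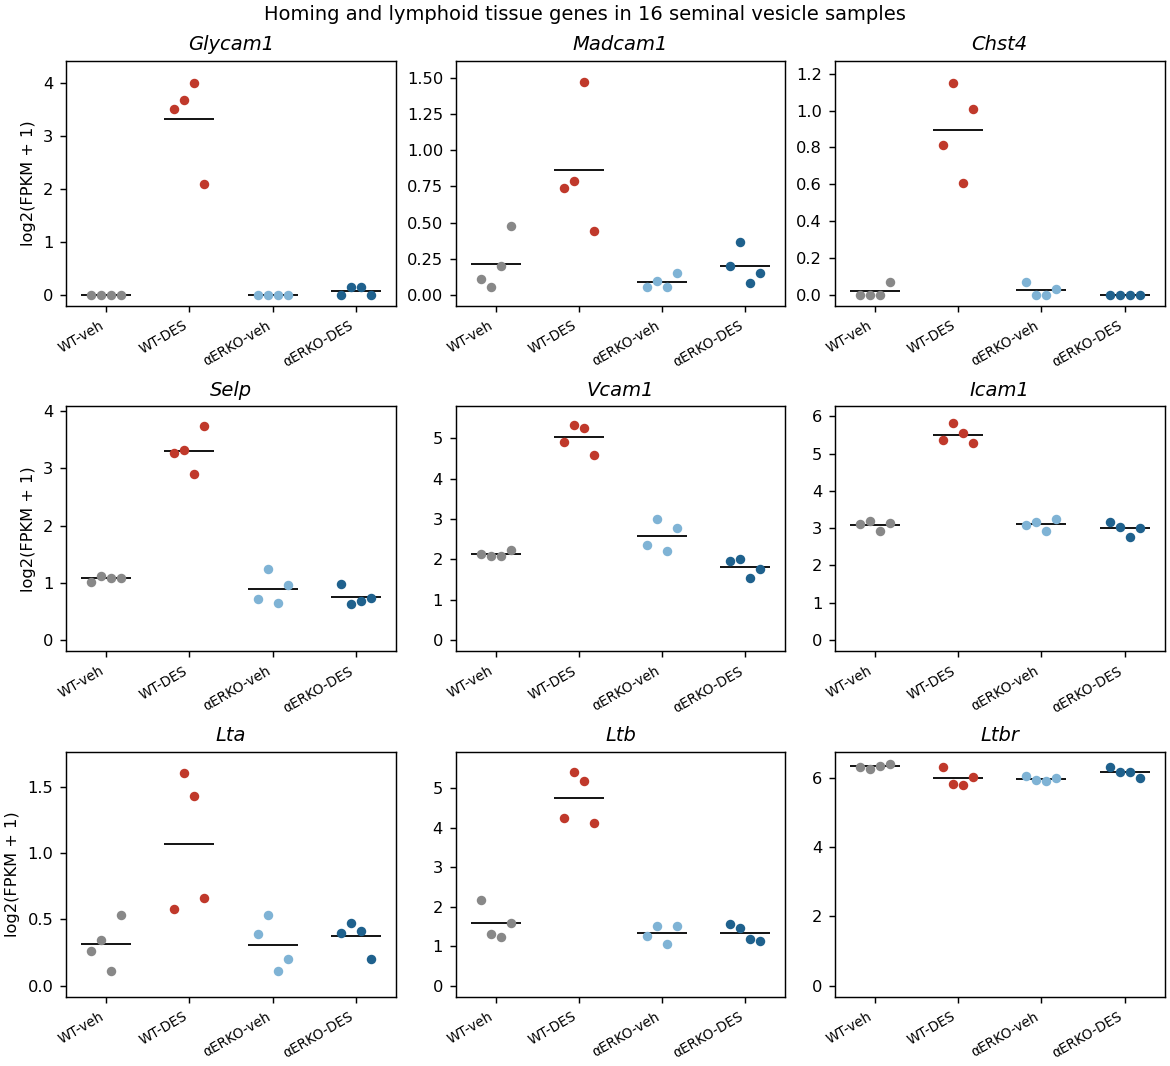
FPKM of the 9 genes on the log2(FPKM + 1) scale in each of the 16 samples, with 1 panel per gene and its own vertical range. Points are samples in the order 1 to 4 and horizontal lines are group means. The WT-DES samples stand above the other groups for *Glycam1*, *Chst4*, *Selp*, *Vcam1*, *Icam1*, *Lta* and *Ltb*, and overlap them for *Ltbr*.

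The adhesion molecules of activated endothelium were present in every group and highest in WT-DES. *Selp* (chromosome 1, 164115264 to 164150026, plus strand) encodes P-selectin, which endothelial cells and platelets release to their surface to tether leukocytes. Its FPKM was 8.60, 8.98, 6.44 and 12.3 in WT-DES, against 1.03, 1.17, 1.13 and 1.11 in WT-veh. Without ERα it was 0.65, 1.36, 0.56 and 0.95 with vehicle and 0.98, 0.54, 0.60 and 0.67 with DES. The αERKO-veh samples overlapped both other groups, every αERKO-DES sample was below every WT-veh sample, and the lowest WT-DES sample was above all of them. The ratio of the means of WT-DES and WT-veh was 8.18, and the log2(FPKM + 1) difference was 2.23 ± 0.16 (SE, n = 4 per group, limma adjusted p = 1.94e-08).

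*Vcam1* (chromosome 3, 116109949 to 116129688, minus strand) encodes the ligand of the integrin α4β1 on lymphocytes and monocytes. Its FPKM was 29.2, 39.1, 37.5 and 22.9 in WT-DES and 3.41, 3.26, 3.21 and 3.71 in WT-veh. The ratio of means was 9.46 and the log2 change 2.88 ± 0.18 (SE, limma adjusted p = 5.32e-09). *Icam1* (chromosome 9, 21015985 to 21028817, plus strand) encodes the ligand of the β2 integrins that arrest leukocytes. It was at 40.1, 55.2, 46.2 and 38.3 in WT-DES and at 7.68, 8.09, 6.64 and 7.80 in WT-veh, a ratio of means of 5.95 and a log2 change of 2.41 ± 0.12 (SE, limma adjusted p = 6.34e-10). For both genes the lowest WT-DES sample exceeded the highest sample of every other group.

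Among the lymphotoxin genes, both ligands were higher in WT-DES and the receptor was not. *Lta* (chromosome 17, 35203165 to 35205351, minus strand) encodes the soluble subunit, lymphotoxin α. Its FPKM was 0.49, 2.05, 1.70 and 0.58 in WT-DES and 0.20, 0.27, 0.08 and 0.45 in WT-veh, so the groups were apart by 0.49 against 0.45 at the edge, and *Lta* passed the minimum of 1 FPKM through WT-DES alone. *Ltb* (chromosome 17, 35194439 to 35196320, plus strand) encodes the membrane subunit, lymphotoxin β, and was at 18.1, 41.8, 35.1 and 16.4 in WT-DES against 3.47, 1.49, 1.35 and 2.00 in WT-veh. Samples 2 and 3 were the highest WT-DES samples for both ligands.

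The ratio of means of WT-DES and WT-veh was 13.4 for *Ltb*, where the log2 change was 3.17 ± 0.27 (SE, limma adjusted p = 9.53e-08), and 4.82 for *Lta*, where it was 0.76 ± 0.21 (limma adjusted p = 0.00416). The change of *Lta* on this scale is reduced by the added 1, since its levels are low. Without samples 2 and 3 of WT-DES, a choice made after seeing the data, *Ltb* was still higher, by 2.61 on the log2 scale (limma adjusted p = 9.21e-07), and *Lta* had no group above 1 FPKM and could not be fitted. After quantile normalization *Lta* was no longer called, with a log2 change of 0.42.

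*Ltbr* (chromosome 6, 125306571 to 125313885, minus strand) encodes the receptor and had the highest level of the 9 genes in every group. Its FPKM was 79.2, 55.9, 54.8 and 64.1 in WT-DES, and 79.6, 76.3, 80.1 and 84.0 in WT-veh. The αERKO-veh samples were at 66.0, 60.5, 59.3 and 63.0 and the αERKO-DES samples at 78.8, 70.9, 71.1 and 63.7, within the range of the WT samples. The log2 change between WT-DES and WT-veh was −0.34 ± 0.10 (SE, limma adjusted p = 0.00544), below 1.5-fold. Its sign depended on the scaling, at 0.19 after quantile normalization and 0.08 with totals equalised without the 20 most abundant genes, so no direction is given for *Ltbr* with DES.

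The 2 ligand genes flank *Tnf* on chromosome 17, which lies at 35199381 to 35202007 on the minus strand and encodes the related cytokine TNF. *Tnf* was at 6.93, 6.53, 6.57 and 2.53 in WT-DES and at 0.10 to 0.62 in WT-veh. Its order among the WT-DES samples differed from that of its neighbours, with sample 1 the highest for *Tnf* and sample 2 for *Lta* and *Ltb*. The FPKM of *Ltb* was 20.4 to 36.8 times that of *Lta* in the WT-DES samples and 4.44 to 17.4 times in WT-veh.

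The minimum of 1 FPKM was passed by 7 of the 9 genes, by *Glycam1* and *Lta* through WT-DES alone, by *Selp* through both WT groups and by *Vcam1*, *Icam1*, *Ltb* and *Ltbr* in all 4 groups. Of the 6 genes tested beside *Glycam1*, 5 were called higher with DES in WT, where 28.9% of the 15988 genes tested were called higher. *Lta* entered the fit only through the group in which it was high, so its calls against WT-DES are no support, and 4 of 5 genes were called without it. A call needed a limma adjusted p no larger than 0.05, means that differed 1.5-fold or more, and 1 mean above 1 FPKM. With totals equalised without the 20 most abundant genes, 79.2% of all calls in this comparison were higher against 54.7% as deposited, 23.6% against 44.5% in αERKO-DES against WT-DES, 78.8% against 52.4% in the interaction and 92.4% against 63.1% between the vehicle groups. The same 5 were called lower in αERKO-DES than in WT-DES, with log2 changes of −0.70 for *Lta*, −2.51 for *Icam1*, −2.55 for *Selp*, −3.20 for *Vcam1* and −3.41 for *Ltb*, where 29.6% of genes were called lower. After quantile normalization *Lta* was at −0.23 and was not called (limma adjusted p = 0.248). This comparison shares the WT-DES samples with the first, so the 2 sets of values are not independent. The change with DES in WT exceeded that in αERKO for the same 5 genes by the interaction test, where 29.6% of genes were called in that direction. The difference was 3.65 ± 0.26 on the log2 scale for *Vcam1*, 3.17 ± 0.38 for *Ltb*, 2.52 ± 0.16 for *Icam1* and 2.36 ± 0.23 for *Selp*. For *Lta* it was 0.69 ± 0.29 (SE, limma adjusted p = 0.0457), and this call was lost under 14 of 23 alternatives, with adjusted p from 0.00914 to 0.507. It was lost with any 1 of WT-veh samples 1 to 3, WT-DES sample 3, αERKO-veh samples 1, 2 and 4 or the 4 αERKO-DES samples left out, with differences of 0.57 to 0.73 and adjusted p of 0.0533 to 0.0941.

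**Figure D2:**
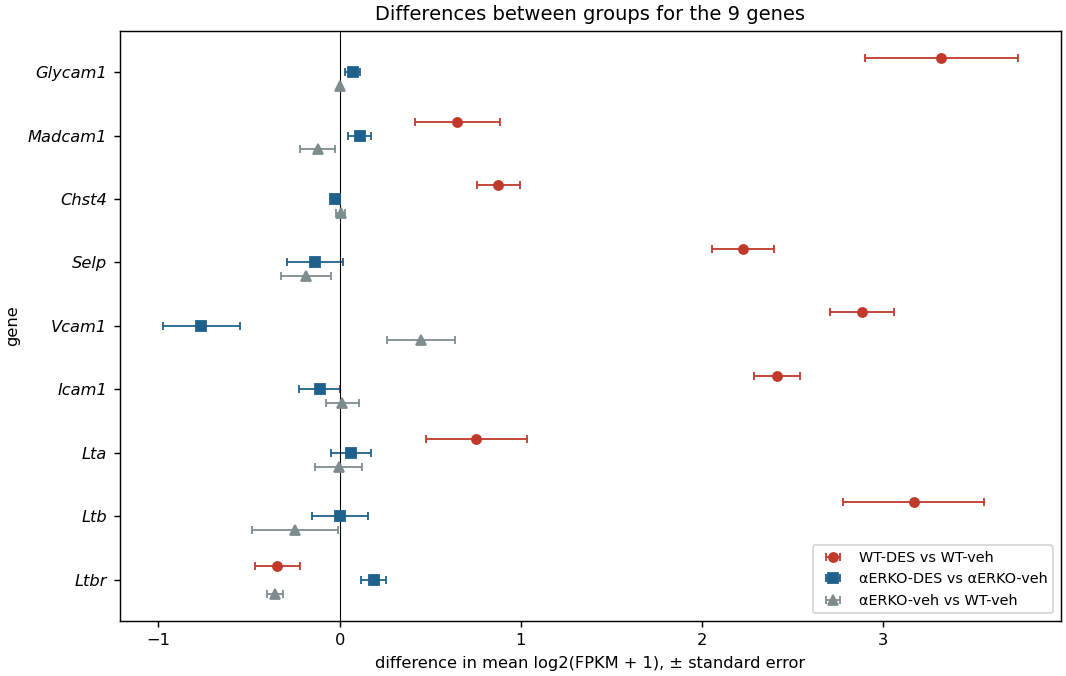
Differences in mean log2(FPKM + 1) for the 9 genes in 3 comparisons. Points are differences between means of 4 samples and bars are standard errors from the group SDs. The DES effect in WT (circles) lies to the right of 0 for 8 genes, from 0.65 for *Madcam1* to 3.32 for *Glycam1*, while the DES effect in αERKO (squares) and the genotype effect without DES (triangles) lie near 0 apart from *Vcam1* and *Ltbr*.

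Between the αERKO groups, 1 of the tested genes passed. *Vcam1* was at 2.90, 3.02, 1.92 and 2.40 in αERKO-DES and at 4.10, 7.02, 3.62 and 5.86 in αERKO-veh, so the groups did not overlap and the direction was opposite to that in WT. It fell, with a log2 change of −0.76 ± 0.18 (SE, limma adjusted p = 0.0424), and it was the 1 gene called of the 6 tested, where 1.41% of all genes were called lower. The call was lost under 14 of 27 alternatives, with log2 changes from −0.95 to −0.53 and adjusted p from 0.0234 to 1. It was lost without any 1 of the αERKO-DES samples, αERKO-veh samples 2 and 4, WT-veh samples 1 to 3 and WT-DES sample 3, where the adjusted p was 0.0515 to 0.161. Leaving out the 4 samples with the most muscle transcripts, a choice made after seeing the data, left 1 αERKO-veh sample, which was assumed to vary like the other groups. The log2 change was then −0.53, and a call lost with 1 sample says little (limma adjusted p = 1). For *Selp*, *Icam1*, *Lta*, *Ltb* and *Ltbr* the log2 changes lay between −0.13 and 0.19, with limma adjusted p of 0.244 or more.

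Other measures moved with *Vcam1* in this comparison. The summed vascular endothelial markers were at 132 to 213 with vehicle and 125 to 143 with DES, the summed adipocyte markers at 85.8 to 982 and 16.9 to 58.8, and the mean log2(FPKM + 1) of the skeletal muscle markers at 4.44 to 7.67 and 2.56 to 3.11. Among these markers, 1 of 10 endothelial, 3 of 5 adipocyte and 4 of 6 skeletal muscle genes were called lower and 0 higher, where 1.41% of all genes were called lower. After quantile normalization 0 of each list were called, and the endothelial call, *Tek*, was also lost with equalised totals. Per 100 FPKM of the endothelial markers, *Vcam1* was at 2.68 to 3.83 with vehicle and 1.53 to 2.17 with DES, so it did not overlap on this scale either. Divided by *Ptprc*, it overlapped at 1.44 to 2.09 with vehicle and 0.81 to 1.66 with DES. The part of adipose or muscle tissue in the value of *Vcam1* was not tested.

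In αERKO-veh against WT-veh 0 of the 6 genes tested were called on the values as deposited, where 7.12% of all genes were called in either direction. *Vcam1* was at 3.62 to 7.02 in αERKO-veh, overlapping the 3.21 to 3.71 of WT-veh, and the log2 change was 0.45 ± 0.18 (SE, limma adjusted p = 0.0837). It was called higher with equalised totals (0.59, limma adjusted p = 0.0442) and without αERKO-veh sample 3 (0.58, adjusted p = 0.0403). *Ltbr* was lower in αERKO-veh, where its highest sample (66.0) was below the lowest WT-veh sample (76.3), but by less than 1.5-fold, at −0.36 ± 0.10 (limma adjusted p = 0.0187). It did not pass after quantile normalization (−0.19, limma adjusted p = 0.089) or with equalised totals (−0.18, adjusted p = 0.0789). *Selp*, *Icam1*, *Lta* and *Ltb* had adjusted p of 0.433 or more.

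Cell type markers moved with the set. All 10 vascular endothelial markers were called higher with DES in WT, beside 28.9% of all genes tested. *Vwf*, *Tek*, *Kdr* and *Pecam1* were among them, and the summed FPKM of the 10 was 250 to 393 against 135 to 169. To set the adhesion genes beside these markers, each was divided by the endothelial sum of its own sample. *Vcam1* was then at 11.6, 10.9, 11.9 and 5.82 per 100 FPKM in WT-DES and 2.20 to 2.41 in WT-veh. *Icam1* was at 9.75 to 16.03 and 4.62 to 5.98, and *Selp* at 2.04 to 3.44 and 0.66 to 0.87, so neither overlapped on this scale. The part of platelets in *Selp*, and of leukocytes and stroma in *Icam1* and *Vcam1*, was not tested. Of the platelet and megakaryocyte markers, *Ppbp* and *Pf4* were called higher, *Itga2b* was called lower but not with equalised totals (−0.15, limma adjusted p = 0.469), and *Gp1ba* and *Gp9* stayed under 1 FPKM on average.

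The lymphotoxin ligands were set beside *Ptprc*, which encodes the leukocyte antigen CD45 and was added for this ratio outside the lists. *Ptprc* was at 22.1, 43.5, 41.7 and 21.5 in WT-DES and at 1.77 to 3.80 in the other 12 samples. *Ltb* per *Ptprc* was 0.76 to 0.96 in WT-DES, 0.59 to 1.13 in WT-veh and 0.43 to 0.97 in the αERKO samples, so that WT-DES lay within the range of WT-veh. *Lta* per *Ptprc* was 0.02 to 0.05 in WT-DES and 0.04 to 0.25 in WT-veh. The mean of *Ptprc* was 32.2 in WT-DES and 2.57 in WT-veh, and its difference was not tested. *Vcam1* and *Selp* divided by *Ptprc* also overlapped between WT-DES and WT-veh, at 0.90 to 1.32 against 0.90 to 2.10 and 0.15 to 0.57 against 0.27 to 0.63. *Icam1* divided by *Ptprc* was lower in WT-DES with no overlap, at 1.11 to 1.82 against 2.02 to 4.41, so the distance of the adhesion genes from their vehicle level, and for *Icam1* its direction, depended on the marker they were set beside. The part of leukocyte number in any of these values was not tested. All 7 T cell markers and all 5 B cell markers tested were called higher in WT-DES, as were all 6 myeloid and all 4 lymphatic endothelial markers, beside 28.9% of all genes. After quantile normalization 6 of the 7 T cell and 3 of the 4 lymphatic markers were called higher. The calls lost were *Cd8a* (0.97, limma adjusted p = 0.0805) and *Prox1* (0.56). The adipocyte markers had 3 of 5 called higher, with sums of 776 to 1759 against 203 to 1002 in WT-veh. That count was 5 after quantile normalization, 4 with equalised totals and 1 without WT-DES samples 2 and 3. Over all genes, 3673 of 15988, 6953 of 16198 and 4437 of 15899 were then called higher, in the same order. Markers of the secretory SV moved the other way, with all 5 secretion genes called lower, beside 23.9% of all genes. Their sums were 2228 to 7196 against 38763 to 45324. Of the epithelial markers 3 of 4 were called lower, at sums of 488 to 711 against 884 to 973, and of the smooth muscle markers 2 of 3, but after quantile normalization 0 of either were lower. Their part in the values of the homing genes was not tested.

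**Figure D3:**
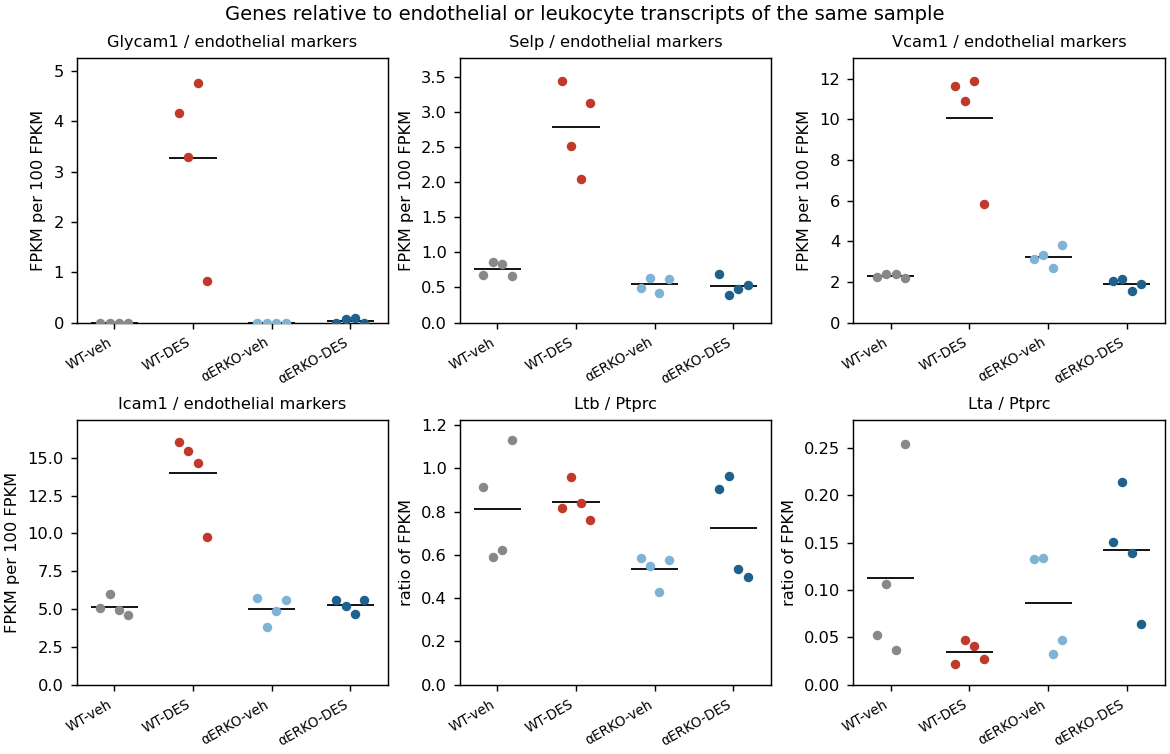
*Glycam1*, *Selp*, *Vcam1* and *Icam1* per 100 FPKM of 10 summed vascular endothelial markers, and *Ltb* and *Lta* divided by *Ptprc*, in each sample. Points are samples and lines are group means. *Selp*, *Vcam1* and *Icam1* are higher in WT-DES beside the endothelial markers, *Glycam1* is 0 in all vehicle samples on any such scale, and *Ltb* per *Ptprc* overlaps between WT-DES and WT-veh.

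The 4 WT-DES samples were not alike. The highest sample was 4.92 times the lowest for *Madcam1*, 4.60 times for *Glycam1*, 4.18 times for *Lta* and 2.54 times for *Ltb*, but 1.91 times for *Selp*, 1.71 times for *Vcam1*, 1.44 times for *Icam1* and 1.45 times for *Ltbr*. *Lta* and *Ltb* were highest in the samples with the highest lymphocyte markers, whose summed FPKM was 27.6, 130, 119 and 35.7 for T cells and 5.74, 36.0, 17.7 and 7.74 for B cells in samples 1 to 4. *Selp* and the endothelial sum were both highest in sample 4, where *Glycam1*, *Madcam1*, *Vcam1*, *Icam1* and *Ltb* were lowest. The summed myeloid markers were at 916 in sample 1 against 231 to 283 in the others, most of it from *S100a8* and *S100a9*, while *Csf1r*, *Adgre1* and *Cd68* were not highest there. In the same sample *Sele*, which encodes E-selectin of inflamed endothelium, was at 10.8 against 0.99 to 1.87 in the other WT-DES samples. With 4 samples, no correlation was computed.

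**Figure D4:**
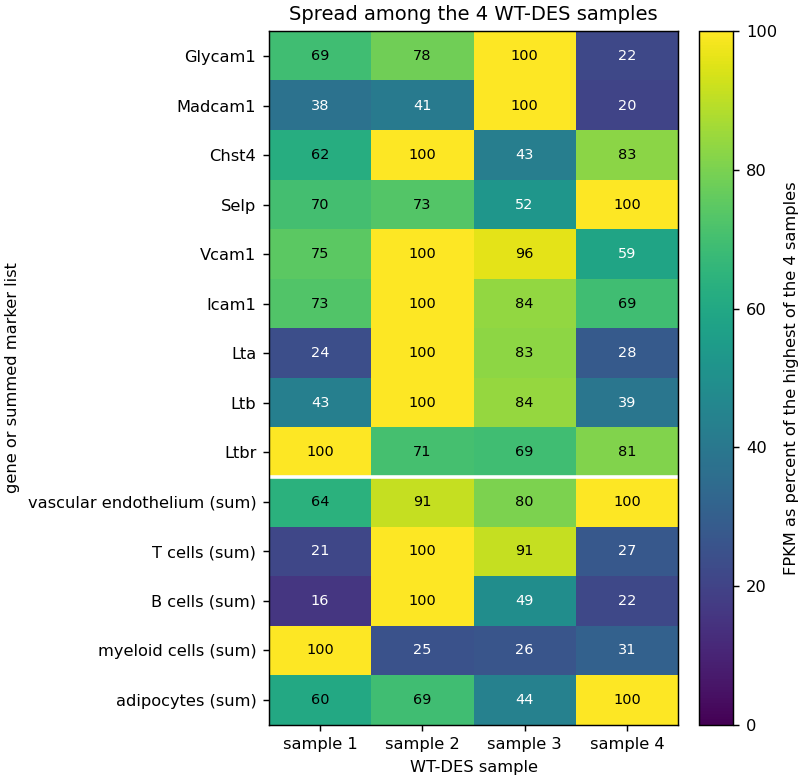
FPKM of the 9 genes and summed FPKM of 5 marker lists in each WT-DES sample, as percent of the highest of the 4 samples, which is 100. *Lta*, *Ltb* and the T cell markers share their highest values in samples 2 and 3, and *Glycam1* and *Madcam1* have their lowest in sample 4.

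Other genes of the same pathway were taken from 7 lists of 60 genes, of which 57 were found and 55 tested. In WT-DES against WT-veh, 39 were called higher and 3 lower, with a median log2 change of 0.99 against −0.01 over all genes tested, of which 28.9% were called higher and 23.9% lower. The split was 38 higher and 3 lower after quantile normalization, beside 3673 and 3904 of 15988 genes. It was 45 and 1 with equalised totals, which moved all genes upwards, to 6953 higher and 1831 lower of 16198. Without WT-DES samples 2 and 3 it was 35 and 3 of 53, beside 4437 and 3599 of 15899 genes. Between αERKO-DES and αERKO-veh, 0 were called higher and 2 lower, beside 14 and 225 of 15988 genes, with a median of −0.07 against 0.02. Many of these genes are made by leukocytes or endothelium, whose markers were also higher in WT-DES, and the part of cell numbers was not tested.

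Of 10 carriers and enzymes of homing ligands, 8 were called higher and 1 lower, beside 28.9% and 23.9% of all genes. The sialyltransferase genes *St3gal4* and *St3gal6* had log2 changes of 1.505 and 1.41, and the branching enzyme gene *Gcnt1* of 1.49, with FPKM of 10.6 in WT-DES sample 1 and 4.29 to 5.07 in the others. *Podxl*, for a carrier that epithelia also make, was called lower at −1.22. *Fut4* was at 4.16 to 4.49 in WT-veh and 2.89 to 5.51 in WT-DES and was not called. Of 6 other endothelial genes tested, 5 were called higher. *Enpp2*, for the lysophosphatidic acid-producing enzyme of high endothelial cells, had a log2 change of 1.94, *Sele* of 1.71, the venular chemokine receptor gene *Ackr1* of 1.61 and *Jam2* of 1.54. *Icam2* was at 0.38 and was not called at 1.5-fold, and *Nkx2-3*, for a homeobox factor of *Madcam1*-positive vessels, was at 0.19 to 0.39 in WT-DES and at most 0.09 elsewhere, under the minimum.

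On the lymphocyte side, 9 of 11 homing receptor genes were called higher, beside 28.9% of all genes. *Selplg*, for the P-selectin ligand, had a log2 change of 3.02, and the integrin genes *Itgb2* and *Itgal* of 2.86 and 2.85. *Itgb1* and *Cxcr4* were not called. The 3 lymphoid chemokine genes found were called higher, *Cxcl12* at 1.70, the B cell attractant gene *Cxcl13* at 1.53 and *Ccl19* at 0.91, the last not after quantile normalization (0.46, limma adjusted p = 0.16), and *Ccl21a*, *Ccl21b* and *Ccl21c* were not matched by symbol. WT-veh sample 4, at 3.27 for *Ccl19* and 4.39 for *Cxcl13*, lay within or close to the WT-DES range.

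Of 7 TNF family genes tested, 6 were called higher. *Tnfsf13b*, for the B cell survival factor BAFF, had a log2 change of 2.42, *Tnfrsf14* of 2.40, *Tnf* of 2.24 and *Tnfrsf1b* of 2.23, while *Tnfrsf1a* was at 0.45 and not called at 1.5-fold. *Tnfsf11* stayed under the minimum, at a mean of 0.66 in WT-DES. Of 13 genes of NF-κB signalling, 5 were called higher, 1 lower and 7 were not called, beside 28.9% of all genes called higher. The count was 7 higher and 1 lower after quantile normalization, where 3673 of 15988 genes were called higher, and 8 and 0 with equalised totals, where 6953 of 16198 were. The genes of the alternative branch *Relb*, *Nfkb2* and *Map3k14* had log2 changes of 1.14, 1.13 and 0.87, *Chuk*, for a kinase of the same branch, of −0.92, and *Nfkbia* and *Rela* were not called. With equalised totals *Chuk* was at −0.50 and was not called. Of 6 lymphoid tissue inducer genes, 4 were called higher, with *Il7r* at 2.12, *Kit* at 1.70 and *Il7* at 0.68, the last not after quantile normalization (0.20). *Id2* was not called. Of the follicular dendritic cell markers, *Fcer2a* was called higher and *Cr2* and *Fcamr* were not. *Fcer2a* passed the minimum through WT-DES alone, where sample 1 (0.09) lay within the WT-veh range of 0.03 to 0.10. After quantile normalization it was not called (0.64, limma adjusted p = 0.0206), and these markers had 0 called higher and 1 lower.

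In αERKO, the 2 genes called with DES were *Enpp2* at −1.02 and *Jam2* at −0.53, both lower, as was *Vcam1*, where 1.41% of all genes were called lower. Neither was called after quantile normalization, where *Enpp2* was at −0.98 and *Jam2* at −0.40. *Jam2* was also not called with equalised totals (−0.64, limma adjusted p = 0.0661) or without WT-DES samples 2 and 3 (−0.53, adjusted p = 0.0647), and neither was called without the 4 muscle-rich samples, which left 1 αERKO-veh sample (*Enpp2* −0.70, *Jam2* −0.25). Among the lymphoid chemokines none was called, and *Cxcl13* was at 0.10 to 0.64 with DES and 0.76 to 5.03 with vehicle. Without DES, *Fut4* was higher in αERKO-veh than in WT-veh by a log2 change of 0.84 and *B3gnt3* by 0.64, and 0 of the other 53 genes were called, beside 7.12% of all genes. With equalised totals 4 of the 55 were called higher, beside 1453 of 16198 genes. Without the 4 muscle-rich samples, which left 1 αERKO-veh sample, the log2 change was 0.82 for *Fut4* and 0.29 for *B3gnt3*.

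**Figure D5:**
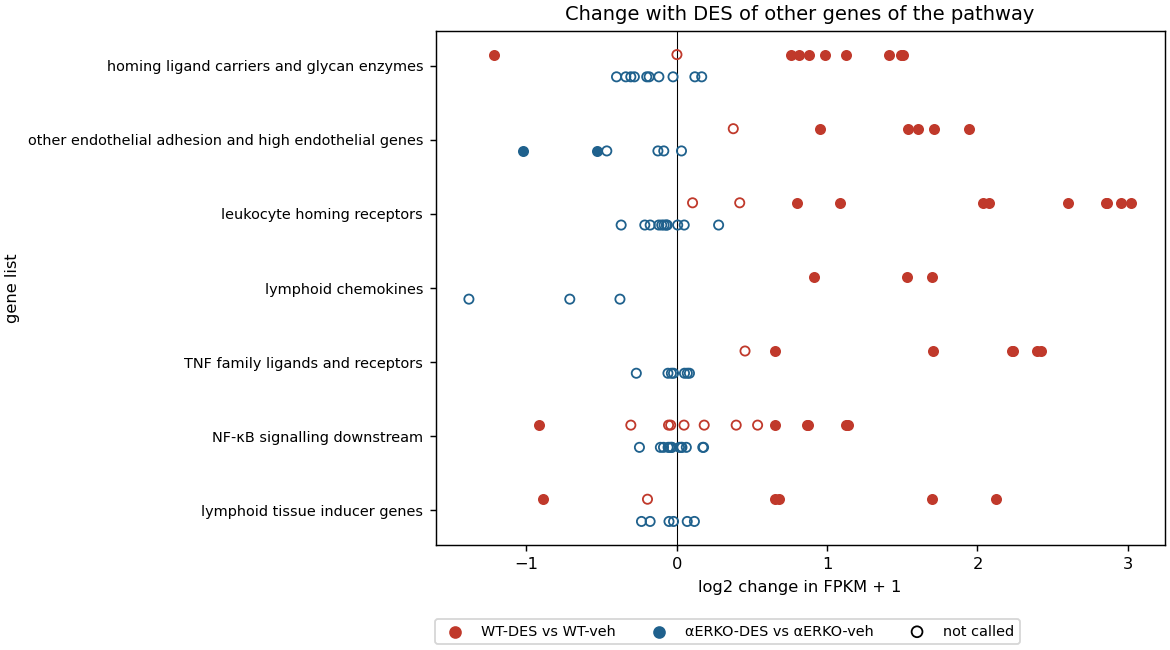
Log2 change in FPKM + 1 with DES for the tested genes of 7 pathway lists, in WT (red) and in αERKO (blue). Each point is a gene, filled where it was called and open where it was not. In WT most genes lie to the right of 0, with *Podxl* and *Chuk* among the 3 called lower, and in αERKO the 2 filled points are *Enpp2* and *Jam2*.

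The genes with the pattern most like that of *Glycam1* over the 16 samples, by Pearson's r of log2(FPKM + 1) among tested genes, were *Gpx5* (0.992), *Trpm2* (0.992), *Slc15a3* (0.992), *Fcgr4* (0.991) and *Klra2* (0.991). Since 1 group stands apart, such values mostly restate the difference between WT-DES and the rest. *Gpx5*, for a secreted glutathione peroxidase known from the epididymis, was at 24.1, 63.4, 49.4 and 8.37 in WT-DES and at most 0.42 elsewhere. *Vcam1* was closest to *Hpse* (0.996), for heparanase, *AK154184* (0.993) and *Antxr1* (0.992), and *Ltb* to the lymphocyte genes *Myo1g* (0.994), *Ptpn7* (0.994) and *Sash3* (0.993). *Hpse* was at 0.24 to 0.58 in αERKO-DES and 0.73 to 1.56 in αERKO-veh, with no overlap.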

How the data were processed

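RNA from 16 SV samples (4 groups of 4) was sequenced by the authors, who used TopHat 2.0.4 for alignment to the mouse genome mm10 and Cufflinks 2.0.2 for FPKM. The authors deposited FPKM with 2 decimals for 31274 genes. No fragment counts or gene annotation were given in the sources used here, so the precision of a value rests on the spread between samples. No pair of samples had identical values (0 pairs).

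The members and all gene lists were chosen with earlier results of these data known. Values were analysed as log2(FPKM + 1), a pseudocount of 1, in R 4.3.3 with limma 3.58.1, with 1 fit to the 16 samples and a coefficient for each group. Variances were moderated with a trend (eBayes), and p-values were adjusted by Benjamini-Hochberg across 15988 genes, those in which any group averaged more than 1 FPKM. Fold changes on this scale understate those of low genes. For the interaction, a call needed adjusted p ≤ 0.05 and a 1.5-fold difference of changes. *Madcam1* and *Chst4* were below the minimum and compared by exact permutation tests. Named were the 9 members, for each list the 4 called genes with the largest change in WT-DES and the 2 most abundant genes not called, and the nearest genes over the 16 samples by Pearson's r. A few further genes named beside these were chosen after their values were seen. Of 129 list genes, 126 were found, 2 of them by older symbols.

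Results were recomputed with quantile normalization, equal totals without the 20 most abundant genes, median-ratio scaling, 0.1 as pseudocount, a minimum of 5 FPKM or none, fits to only the 2 groups compared, no trend, the replicate number as a block, each sample left out in turn, and 2 omissions of samples chosen after seeing the data. The steps were tested on simulated data. Tables and figures were made in Python 3.11.15 with pandas 2.3.3, numpy 2.4.6 and matplotlib 3.10.9. Some genes of the lists enter the counts and are not reported here by name.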

Additional observations from a re-analysis of the deposited data

Results flagged for a closer look

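The change with DES differed between WT and αERKO, by a test of the difference itself, for 6 genes at an adjusted p under the threshold, of the 6 tested beside *Glycam1*. Over all genes, 9025 of 15988 were called in this test, which also needs a 1.5-fold difference, as were 5 of these 6. The share of all genes at an adjusted p alone was not computed, but 11771 of 15988 had an unadjusted limma p under 0.05. The change in WT minus that in αERKO was 3.65 on the log2 scale for *Vcam1*, 3.17 for *Ltb*, 2.52 for *Icam1*, 2.36 for *Selp* and 0.69 for *Lta* (limma adjusted p = 4.01e-08, 4.59e-06, 2.3e-08, 6.12e-07 and 0.0457). The call of *Lta* was lost under 14 of 23 alternatives, and this gene passed the minimum only through WT-DES. For *Ltbr* it was −0.53 (limma adjusted p = 0.00328), which is under 1.5-fold and became 0.15 after quantile normalization and 0.03 with totals equalised without the 20 most abundant genes. A single sample lay far from the others of its group for *Chst4* in WT-veh, where sample 4 was at 0.05 FPKM and the others at 0. This was 1 of 33 combinations of gene and group with any spread, and chance flags about 1 in 20 groups of 4.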

How the results depend on the processing

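Leaving out the 20 most abundant genes from the totals moved the median log2 change of all genes by 0.39 in WT-DES against WT-veh, by −0.34 in αERKO-DES against WT-DES, by 0.51 in the interaction, by 0.14 in αERKO-veh against WT-veh and by −0.10 in αERKO-DES against αERKO-veh. The calls in WT-DES against WT-veh were then 6953 higher and 1831 lower, against 4613 and 3815. Under this scaling, or without αERKO-veh sample 3, 1 of the 6 genes, *Vcam1*, was called in αERKO-veh against WT-veh, and leaving out each sample gave 0 to 1. In αERKO-DES against αERKO-veh the count was 0 without a minimum on FPKM, with only the 2 groups compared, after quantile normalization and without the 4 samples with the most skeletal muscle transcripts, and 0 to 1 with each sample left out. Without a minimum on FPKM, *Chst4* and *Madcam1* were called in 4 of 8 comparisons by limma, against 0 by the exact test. Of 786 values of single genes under the alternatives, 753 kept their direction and side of the threshold or were not called either way, 30 lost a call and 3 gained one, and no called value changed sign. The cause was not tested. Over all genes, 1139 were called between the vehicle groups, against 418 to 1691 with each sample left out, the lowest without αERKO-veh sample 2 and the highest without αERKO-veh sample 1, 1573 with equalised totals and 7 without the 4 muscle-rich samples. That omission, chosen after seeing the data, left 1 αERKO-veh sample, so its lost calls, in both comparisons with αERKO-veh, do not separate muscle content from sample number. Between the αERKO groups 239 were called, against 401 with a pseudocount of 0.1, 150 without a minimum, 133 with a minimum of 5, 28 with only the 2 groups, 5 after quantile normalization, 149 without WT-DES samples 2 and 3, 6 without the muscle-rich samples and 1 to 653 with each sample left out. Same-numbered samples did not all deviate together, with correlations of their deviations from −0.11 to 0.28, and the numbers share no stated source. A fit with the replicate number as a block called 5, 5, 5, 0 and 1 of the 6 genes in the 5 comparisons, as did the fit without it. Fragment counts were not given, so differences in values below about 1 FPKM cannot be weighed against counting error.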
